A study of Laetiporus sulphureus with 6 samples.

Results

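The arabinoxylan enzymes of *L. sulphureus* ATCC 52600 described here are the genes that the study annotated with a GH10, GH43, GH51 or GH115 domain. The annotation lists 9 such genes, 3 of GH10, 1 of GH43, 2 of GH51 and 3 of GH115, and 8 of them were among the 10015 genes of the deposited tables. The other one, the GH10 gene g4477, is not listed in the tables used here and was not analysed. Since no gene of the tables lay under 1 CPM (counts per 1000000 counts of a library) in any library, a gene silent in either condition would not appear, and the 8 genes are those that passed this limit. No measured value was used to choose them.

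*L. sulphureus* is a brown-rot basidiomycete, a fungus that decays wood. RNA was sequenced from 3 biological replicates on bagasse (BIN) and from 3 of the mycelium used as pre-inoculum (T0), all of the same strain. T0 mycelium had grown for 7 days in shaken liquid medium at 30 °C, whose composition is not given in the sources used here for this experiment. BIN mycelium was washed, moved to 100 mL of mineral medium with 1.0 g of in natura (not pretreated) sugarcane bagasse and harvested with the remaining bagasse after 24 h. Temperature (30 °C) and shaking (180 rpm) were the same for BIN and T0. Transfer, new medium, time and bagasse changed together, so their effects cannot be told apart.

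Arabinoxylan is the main hemicellulose of grasses such as sugarcane. It has a backbone of xylose units that carries side chains of arabinose and of glucuronic acid. GH10 endo-xylanases cut the backbone, GH51 α-L-arabinofuranosidases release arabinose, and GH115 α-glucuronidases remove glucuronic acid. GH43 is a broad family that holds β-xylosidases and arabinofuranosidases, and the study describes its single GH43 gene as a β-xylosidase. That gene belongs to subfamily GH43_24, whose characterised member in the white-rot fungus *Phanerochaete chrysosporium* is an exo-galactanase, so its role in xylan breakdown is uncertain. Their sequences were not analysed here.

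The 6 libraries held 9541028 to 15331728 counts. Log2 CPM values of replicates correlated at 0.993 to 0.995 in BIN and at 0.979 to 0.992 in T0, where replicate 2 stood farthest from the others. Levels are given as CPM after TMM normalization when conditions are compared, and as TPM (transcripts per 1000000 transcripts), which also divides by gene length, when genes are compared with each other. Fold changes are BIN over T0 from edgeR's quasi-likelihood test on the counts, with p-values adjusted by the Benjamini-Hochberg method over all 10015 genes. Calls of higher or lower required both an adjusted p no larger than 0.05 and a change of 1 or more on the log2 scale. These are bulk RNA values, in which fewer cells that express a gene and less RNA per cell cannot be told apart.

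On bagasse, the arabinoxylan enzymes did not move as one group. The GH115 α-glucuronidase g6326 was called higher, and the GH51 arabinofuranosidase g7154 and the GH43_24 gene g7555 were called lower. The remaining 5 genes were not called. The 3 calls among 8 genes stand beside 25.9% of all genes called, with 11.3% of all genes higher and 14.5% lower. Without a limit on the size of the change, 7 of the 8 genes passed the threshold of 0.05 on adjusted p, beside 71.1% of all genes. In CPM, BIN and T0 libraries did not overlap for 7 of the 8 genes, beside 75.6% of all genes. The median log2 fold change of the 8 genes was 0.81, against 0.27 for the 257 annotated carbohydrate-active enzymes (CAZymes) in the tables and 0.00 for all genes. Of these 257 CAZymes, 63 were called higher, a larger share than among all genes, and 34 lower, a slightly smaller share.

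**Figure D1:**
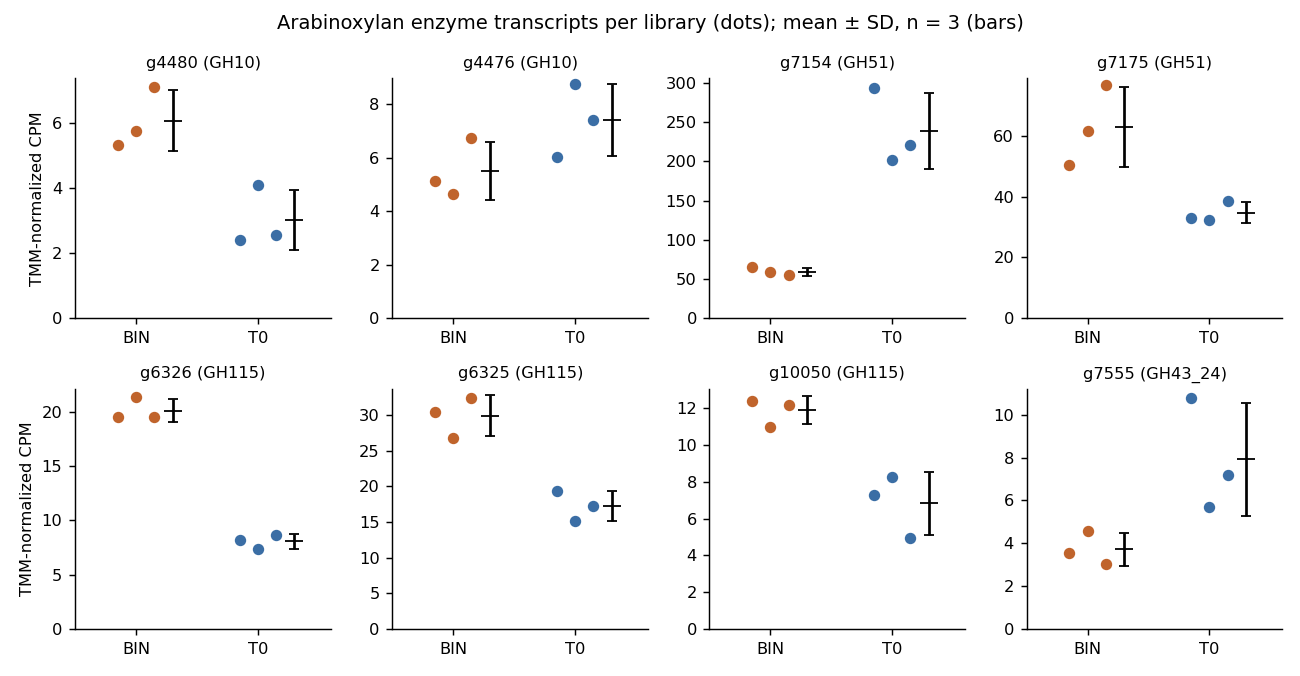
TMM-normalized CPM of the 8 arabinoxylan enzyme genes in each library (dots) with the mean and SD of 3 libraries (bars), BIN left and T0 right, each panel with its own linear axis from 0. The BIN and T0 dots are apart in all panels except that of g4476, where BIN replicate 3 lies at 6.73 CPM and T0 replicate 1 at 6.04 CPM.

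Of the GH10 endo-xylanases, g4480 had 5.30, 5.75 and 7.10 CPM in BIN replicates 1, 2 and 3, against 2.39, 4.09 and 2.56 CPM in T0 replicates 1, 2 and 3. All BIN libraries lay above all T0 libraries, the gap being narrowest against T0 replicate 2. The log2 fold change was 0.98 (standard error, SE, 0.23, adjusted p = 0.00356 by edgeR), which is under the limit of 1, so the gene was not called. The value was 1.27, 1.07 and 1.02, and the gene was called, without T0 replicate 2, BIN replicate 1 and BIN replicate 2 in turn. These levels rest on few reads. T0 replicate 1 held 21 counts of g4480, with a 95% exact Poisson interval of 13.0 to 32.1 that covers counting error only, and BIN replicate 3 held 98 counts. The coefficient of variation over replicates was 15.5% in BIN and 31.0% in T0, where counting error alone would give 11.5% in BIN and 17.5% in T0.

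The GH10 gene g4476 had 5.13, 4.65 and 6.73 CPM in BIN, against 6.04, 8.74 and 7.41 CPM in T0. The conditions overlapped, and the log2 fold change of -0.44 (SE 0.19) missed the threshold on p (edgeR adjusted p = 0.066). The study predicted a signal peptide for this enzyme. On the log2(TPM + 1) scale, where the median over all genes was 0.40, the value was 0.01.

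Among the arabinofuranosidases, g7154 showed the largest change of the 8 genes. It had 64.9, 58.7 and 54.8 CPM in BIN, against 294, 202 and 221 CPM in T0. Every BIN library was far below every T0 library, and the mean fell to 59.5 ± 5.07 CPM in BIN, against 239 ± 48.7 CPM in T0 (SD, n = 3). The log2 fold change was -2.01 (SE 0.14, adjusted p = 3.29e-06 by edgeR), a level in BIN of 0.249 times that in T0. The product is annotated as a secreted arabinofuranosidase.

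The second GH51 gene, g7175, had 50.3, 61.5 and 76.6 CPM in BIN, against 33.1, 32.4 and 38.6 CPM in T0. All BIN libraries were above all T0 libraries, with a wider spread in BIN (SD 13.2 CPM) than in T0 (SD 3.37 CPM). Its log2 fold change of 0.85 (SE 0.15, adjusted p = 0.000855 by edgeR) was significant without the limit on size and was not called with it. In the study's annotation SignalP found no signal peptide in g7175, while SecretomeP, which predicts secretion by other routes, was positive.

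The GH115 α-glucuronidases all had higher CPM in every BIN library than in every T0 library. g6326 had 19.5, 21.4 and 19.5 CPM in BIN, against 8.20, 7.33 and 8.66 CPM in T0, with close replicates in both conditions. Its log2 fold change was 1.32 (SE 0.12, adjusted p = 9.57e-06 by edgeR), or 2.50 times the level in T0. g6325 had 30.4, 26.8 and 32.4 CPM in BIN, against 19.4, 15.2 and 17.2 CPM in T0, with a change of 0.80 on the log2 scale (SE 0.12, adjusted p = 0.000314 by edgeR). g10050 had 12.4, 11.0 and 12.2 CPM in BIN, against 7.29, 8.25 and 4.92 CPM in T0, with a change of 0.81 on the log2 scale (SE 0.19, adjusted p = 0.0034 by edgeR). Neither g6325 nor g10050 reached the limit of 1. On log2(TPM + 1) values, where the median over all genes was 0.40, g6325 had 1.14 and the GH51 gene g7175 had 1.22, and both were called higher.

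The GH115 genes are longer than most. Taking the median gene as 1, the relative length was 1.41 for g6325, 1.51 for g6326 and 2.80 for g10050, and 0.691 for g4480. With a smooth trend of log2 CPM on gene length taken out of every library, g10050 had a log2 fold change of 0.31 (edgeR adjusted p = 0.14), while g6326 had 1.18 and was still called. In the same fit g4480 had 1.20 and was called higher.

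The GH43_24 gene g7555 had 3.56, 4.57 and 3.04 CPM in BIN, against 10.8, 5.71 and 7.20 CPM in T0. The T0 libraries were uneven, with replicate 1 the highest, and the BIN and T0 libraries did not overlap in CPM. The log2 fold change was -1.05 (SE 0.26, adjusted p = 0.0053 by edgeR). The call lay close to the limit and was lost without T0 replicate 1, at -0.81, and without BIN replicate 3, at -0.92. In TPM, BIN replicate 2 (3.59) lay just above T0 replicate 2 (3.57).

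In a test of whether the change exceeded the limit of 1, edgeR's glmTreat, g7154 (adjusted p = 0.000106) and g6326 (adjusted p = 0.019) passed and g7555 did not (adjusted p = 0.78). The plot of fold changes shows this order, with g7154 at the low end and g6326 at the high end.

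**Figure D2:**
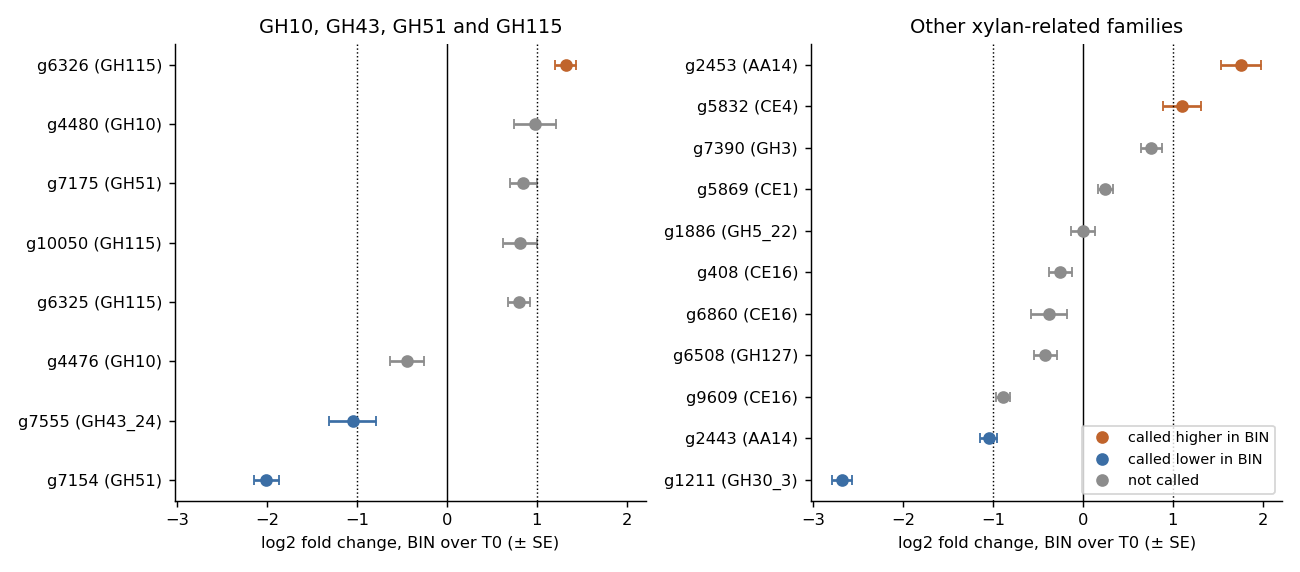
Log2 fold changes of BIN over T0 with their standard errors for the 8 arabinoxylan enzyme genes (left) and for 11 genes of other xylan-related families (right), with dotted lines at the limits of -1 and 1. On the left, g7154 lies at -2.01 and g6326 at 1.32, and 4 genes lie between 0.80 and 0.98.

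The genes within a family were next compared with each other as TPM ratios, which do not depend on how libraries are scaled. Between conditions, 5 pairs were compared with two-sided exact permutation tests over the libraries. With 3 against 3 libraries the smallest p is 0.1, so no pair could reach 0.05, and the lowest p adjusted over the 5 pairs was 0.167.

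The GH51 pair showed the widest shift. The ratio of g7154 to g7175 was 1.35, 1.00 and 0.75 in BIN, against 9.30, 6.52 and 6.02 in T0. In T0, g7154 was thus the main arabinofuranosidase transcript in every library, whereas in BIN the pair was near parity, at 34.5 ± 2.93 TPM for g7154 and 34.7 ± 7.17 TPM for g7175 (SD, n = 3). The difference of the log2 ratios, BIN minus T0, was -2.83 (SE 0.31, exact permutation p = 0.1).

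The order of the GH10 pair was inverted. The ratio of g4480 to g4476 was 1.26, 1.51 and 1.29 in BIN, against 0.483, 0.570 and 0.422 in T0. g4480 was the higher of the pair in all BIN libraries and the lower in all T0 libraries, and the log2 ratio differed by 1.46 (SE 0.15, exact permutation p = 0.1).

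In GH115, the ratio of g6326 to g6325 was 0.602, 0.746 and 0.562 in BIN, against 0.396, 0.453 and 0.472 in T0. g6325 thus had the higher TPM in all 6 libraries, and the ratio differed by 0.53 on the log2 scale (SE 0.14, exact permutation p = 0.1). The ratio of g6326 to g10050 overlapped between the conditions, with a log2 difference of 0.49 (SE 0.31, exact permutation p = 0.3), as did that of g6325 to g10050, with -0.04 (SE 0.27, exact permutation p = 0.9). T0 replicates of g10050, which enter both of these pairs, ranged between 1.19 and 2.26 TPM.

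**Figure D3:**
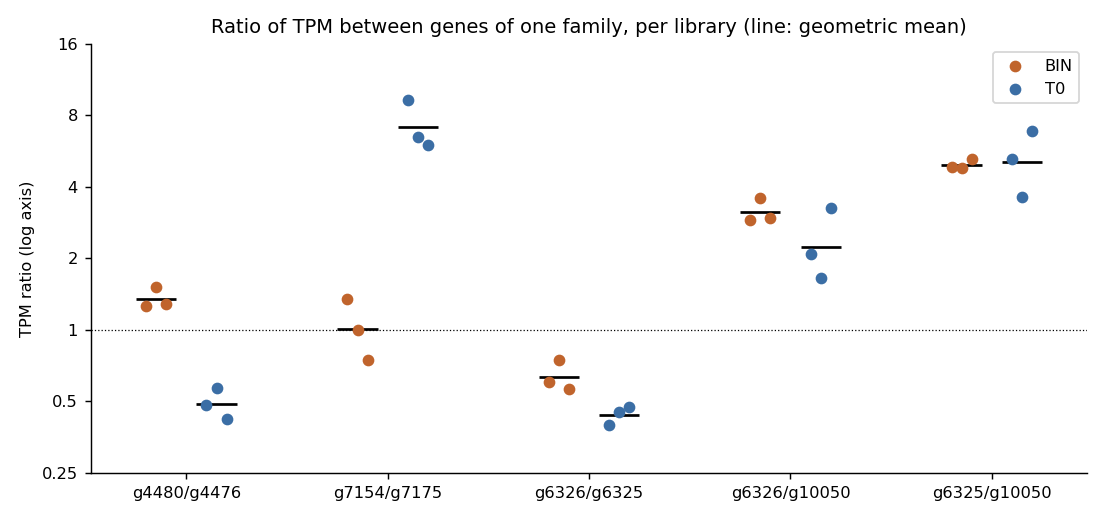
TPM ratio of 2 genes of the same family in each library on a log2 axis (BIN left and T0 right in each pair, line at the geometric mean of 3 libraries). For g7154/g7175 the BIN dots lie between 0.75 and 1.35 and the T0 dots between 6.02 and 9.30, and for g4480/g4476 the dots lie above 1 in BIN and below 1 in T0.

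The consecutive or near numbers of g4476, g4477 and g4480 and of g6325 and g6326, and their shared families, leave it possible that some reads were assigned to the wrong copy, since the program that counted the reads and its handling of multiply mapped reads are not given in the sources used here. The similarity of these genes was not tested.

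The 8 genes together had 117, 122 and 130 TPM in BIN, against 158, 139 and 133 TPM in T0. All BIN libraries were lower, by little in the case of T0 replicate 3, with a log2 difference of -0.22 (two-sided exact permutation p = 0.1, the smallest possible). In TMM-normalized CPM the 8 genes summed to 191, 194 and 212 in BIN, against 381, 283 and 308 in T0, a wider log2 difference of -0.69 (exact permutation p = 0.1). These sums were dominated by g7154. Without that gene the others summed to 79.6, 87.2 and 98.9 TPM in BIN, against 39.8, 44.7 and 40.9 TPM in T0, a log2 difference of 1.08 in the opposite direction (exact permutation p = 0.1). In CPM the same 7 genes summed to 127, 136 and 158 in BIN, against 87.2, 81.7 and 86.5 in T0, a log2 difference of 0.71 (exact permutation p = 0.1). The size of these differences thus depended on the scale, and on log2(TPM + 1) values the median over all genes was itself 0.40.

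g7154 made up 28.2% ± 3.90 of the summed TPM in BIN and 70.6% ± 3.71 in T0 (SD, n = 3). Its rank by mean TPM among the 257 CAZymes was 129 in BIN and 43 in T0. The share of the GH115 genes was 29.7% ± 1.22 in BIN and 9.73% ± 0.621 in T0, and that of the GH10 genes was 11.7% ± 1.22 in BIN and 6.57% ± 2.27 in T0. The GH115 genes summed to 36.4, 35.6 and 37.6 TPM in BIN, against 14.3, 14.2 and 13.3 TPM in T0, the closest replicates of the 4 families. As shares of 1 sum, these values are tied to each other.

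**Figure D4:**
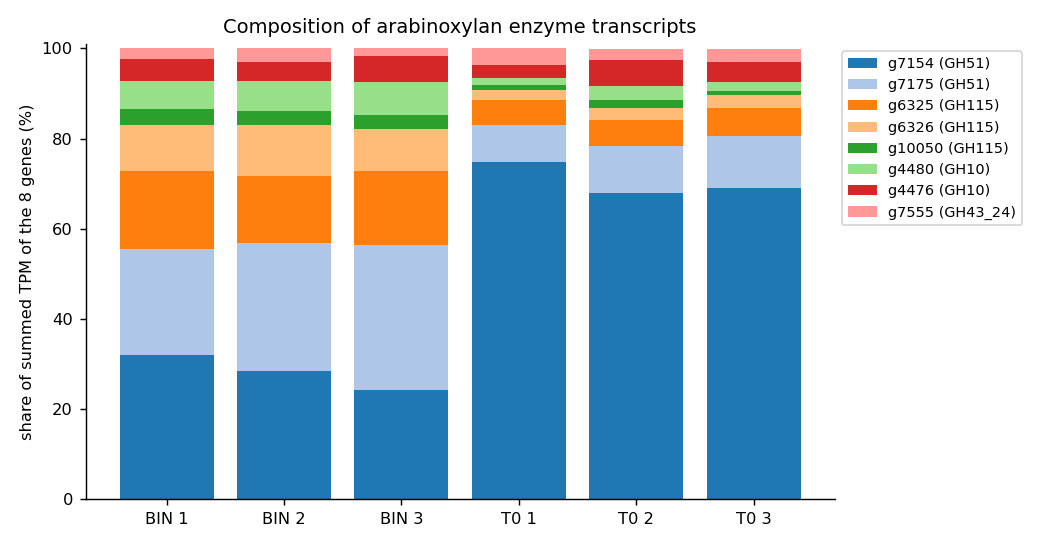
Share of each of the 8 genes in their summed TPM in each library (stacked bars, BIN left and T0 right, axis from 0). g7154 takes 24.1% to 31.9% in the BIN libraries and 67.9% to 74.9% in the T0 libraries.

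By TPM, the order in BIN was g7175 and g7154, then g6325 (19.9 ± 1.62), g6326 (12.6 ± 0.876), g4480 (8.27 ± 1.23), g4476 (6.17 ± 1.15), g10050 (4.01 ± 0.193) and g7555 (2.88 ± 0.649). The ranges of g7175 and g7154 overlapped, as did those of g4480 and g4476. In T0 the order was g7154 (102 ± 14.7), g7175 (14.2 ± 1.28), g6325 (8.47 ± 0.460), g4476 (6.20 ± 1.63), g7555 (4.45 ± 1.19), g6326 (3.71 ± 0.151), g4480 (3.10 ± 1.24) and g10050 (1.72 ± 0.534). Neighbours from g4476 to g4480 overlapped in T0. Apart from g7154 in T0, these were transcripts of modest level, since the mean TPM ranked 4707 or lower among the 10015 genes for every gene in BIN and 6584 or lower for the other 7 genes in T0.

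Other genes annotated in families that act, or may act, on xylan gave a mixed picture as well. They were picked from the annotation and are not all genes of their families, since the GH3 β-glucosidases, for example, were left out. This list held 16 genes, of which 11 were in the tables, with a median log2 fold change of -0.25. Of the 11, 2 were called higher and 2 lower. Beside this stand 11.3% of all genes called higher and 14.5% lower, and 63 higher and 34 lower of the 257 CAZymes. Among the AA14 genes, a family of lytic polysaccharide monooxygenases known to attack xylan on cellulose in *Pycnoporus coccineus*, g2453 rose and g2443 fell. g2453 had 45.5, 48.3 and 45.2 CPM in BIN, against 16.6, 8.53 and 16.3 CPM in T0, and changed by 1.76 on the log2 scale (SE 0.22, adjusted p = 0.000168 by edgeR). g2443 had 34.2, 33.1 and 32.5 CPM in BIN, against 69.1, 62.4 and 75.0 CPM in T0, and its change was -1.05 on the log2 scale (SE 0.09, adjusted p = 6.54e-06 by edgeR). The call of g2443 was lost in 5 of 17 alternatives, namely without T0 replicate 3 (-0.98), by glmTreat (adjusted p = 0.518 by edgeR), with library size alone (-0.91), and in TPM with 1 added (-0.59) or 0.1 added (-0.61) before taking logs.

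The study describes the GH30_3 gene g1211 as an endo-xylanase, although characterised fungal enzymes of this subfamily have other activities. g1211 had 8.44, 9.22 and 11.0 CPM in BIN, against 59.0, 61.6 and 63.0 CPM in T0. Its log2 fold change was -2.68 (SE 0.11, adjusted p = 9.03e-08 by edgeR), in the same direction as g7154. The CE4 gene g5832, annotated as an acetyl xylan esterase by gene ontology and as a chitin deacetylase by protein description, had 8.61, 8.28 and 8.47 CPM in BIN, against 4.33, 4.93 and 2.63 CPM in T0. Its log2 fold change was 1.10 (SE 0.21, adjusted p = 0.00117 by edgeR). The call of g5832 was lost without T0 replicate 3, at 0.85, and by glmTreat (adjusted p = 0.564 by edgeR).

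The other 7 genes of the list were not called. The GH3 gene g7390 is described as a β-xylosidase that releases xylose from short xylan fragments. Its log2 fold change was 0.76 (SE 0.12, adjusted p = 0.000442 by edgeR), just below the 0.80 to 0.98 of the uncalled arabinoxylan enzymes that rose. The CE16 acetyl esterases g9609, g6860 and g408 had log2 fold changes of -0.89, -0.38 and -0.25, the CE1 gene g5869 had 0.25, the GH127 gene g6508 had -0.42 and the GH5_22 gene g1886 had 0.00.

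For each called gene, the 3 CAZymes with the most similar profile were sought among the other 256 in the tables, by the root mean square (RMS) difference of centred log2 CPM over the 6 libraries. This is a description, in which the change between conditions weighs most. The genes nearest to g6326 were the GH5_50 endoglucanase g7477 (RMS difference 0.09), the GH13_1 α-amylase-family gene g9936 (0.10) and the PL35 lyase g9217 (0.12), with log2 fold changes of 1.18, 1.36 and 1.31. Those nearest to g7154 were the AA3_2 oxidoreductases g9755 (0.15) and g5675 (0.21) and the GH16 gene g5560 (0.21), with log2 fold changes of -1.94, -2.29 and -1.74. Those nearest to g7555 were less close, namely the GT65 gene g6992 (0.27), the AA14 gene g2443 (0.30) and the GH20 gene g7008 (0.30). Among the arabinoxylan enzymes themselves, the closest pair was g7175 and g6325 (0.20), from different families, and the GH115 pairs were 0.27, 0.30 and 0.39 apart. The GH51 pair was 1.45 apart and the GH10 pair 0.74 apart.

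Genes with numbers within 5 of an arabinoxylan enzyme were also examined, although the sources used here do not say whether consecutive numbers are neighbours on the assembly. The counts that follow stand beside 11.3% of all genes called higher and 14.5% called lower, and with 5 to 12 genes around each enzyme no test was made. Around g4476 and g4480, 1 of 12 genes was called higher (g4483, log2 fold change 2.56) and 2 lower (g4472, -3.06, and g4481, -1.19). Around g6325 and g6326, 1 of 9 genes was called, g6330, at 1.27. Around g7154, g7149 (-2.35) and g7153 (-1.04) of 5 genes were called lower, the same direction as g7154. Around g7175, 4 of 9 genes were called lower, whereas g7175 itself was not. They were g7173, g7174 (listed among the study's redox genes), g7179 and g7180, with log2 fold changes of -1.41, -3.24, -2.30 and -2.46. Around g7555, which was lower, 5 of 10 genes were called higher (g7550, g7553, g7557, g7559 and g7560, at 1.04 to 4.15) and the peroxidase g7552 lower. None of the 9 genes around g10050 was called by edgeR or by DESeq2. Their log2 fold changes by edgeR, -0.87 to 0.7, stayed within the limit of 1. An unadjusted p under 0.05 by edgeR was found for 6 of them. Over all genes, 71.1% passed the threshold of 0.05 even on adjusted p.

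**Figure D5:**
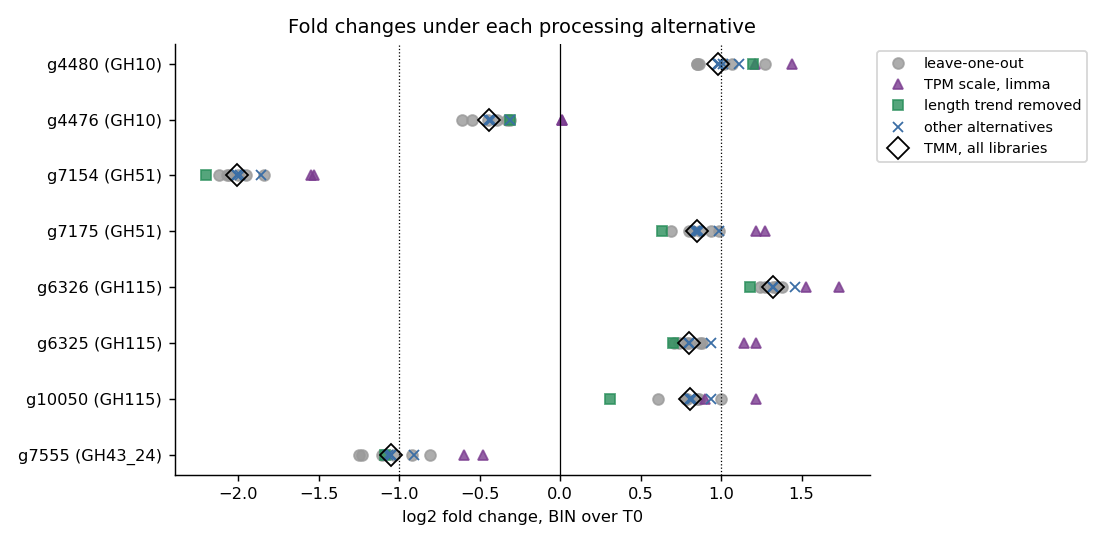
Log2 fold change of BIN over T0 for each of the 8 genes in the fit with TMM normalization and all libraries (diamonds) and under 17 alternatives, with dotted lines at -1 and 1. g7154 stays between -2.20 and -1.53 and g6326 between 1.18 and 1.73, while the values of g4480 (0.85 to 1.44), g7555 (-1.25 to -0.48), g7175, g6325 and g10050 lie on both sides of a limit.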

How the data were processed

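Per the study's methods, reads were trimmed (Trimmomatic 0.32), cleared of rRNA (SortMeRNA) and aligned to the strain's own genome (TopHat2). The deposited counts are whole numbers for each predicted gene. The TPM values, also deposited, are the same counts per unit of gene length, with a total of 1000000 in every library. The counting program is not given in the sources used here. None of the gene numbers was found among the 13840 genes of a reference list for another strain, so no positions are given.

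Counts were compared with edgeR 4.0.16 under R 4.3.3 (TMM, robust glmQLFit, glmQLFTest). Standard errors of fold changes were obtained from the F statistic, as |log2 fold change|/√F. Alternatives used DESeq2 1.42.0 and limma 3.58.1 with pseudocounts of 1 and 0.1, and a lowess trend with a span of 0.3 on relative gene length, taken from the ratio of counts to TPM. The edgeR test was tested on simulated data. Permutation tests enumerated all regroupings of the 6 libraries. The labels do not say that replicates were separate cultures beyond calling them biological replicates.

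Genes and lists were chosen by annotation, with earlier results of these data known. All genes of the 4 families were named, the called genes of the other xylan list, the 3 most similar CAZymes of each called gene, and called genes within 5 gene numbers. The 7 uncalled genes of the other list were named as well.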

Additional observations from a re-analysis of the deposited data

How the results depend on the processing

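Under 17 alternatives, g7154 and g6326 kept their direction and their call, g7555 lost its call in 6 and g4480 gained one in 8. The value of g7555 was -0.91 with library size alone, -0.48 with log2(TPM + 1) and -0.60 with log2(TPM + 0.1), and its adjusted p by glmTreat was 0.78. With each library left out, g4480 lay between 0.85 and 1.27. The number of called arabinoxylan enzymes was 5 when log2(TPM + 1) was used (median of all genes 0.40) and 6 when log2(TPM + 0.1) was used (median 0.43), and g4476 reversed to 0.01 in either case. glmTreat called 1653 of all genes in place of 2591, and 2 of the other xylan genes in place of 4; with each library left out, this last number was 2 to 4. The split of all calls was 1134 higher and 1457 lower, but 1439 and 1185 with library size alone (median of all genes 0.13), 2136 and 736 with log2(TPM + 1) and 2410 and 780 with log2(TPM + 0.1). The filterByExpr filter removed no gene, so that alternative repeated the fit with TMM normalization and all libraries. The alternative with unadjusted p could not cost a gene its call either.

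The log2 ratio of g6325 to g10050 reversed to 0.24 with 1 TPM added, and lay between -0.28 and 0.18 with each library left out. The summed TPM reversed to 1.08 without g7154, as did the summed CPM without it, at 0.71, an alternative chosen after seeing the data. Between libraries of the same replicate number, deviations from the group means correlated at 0.03, 0.01 and -0.10. No shared deviation was thus visible, but these values cannot show whether such libraries came from 1 culture. With the replicate block, 2587 genes were called, g4480 among them at 1.01, and no other call among the 8 genes changed. The changes of g4480 and g7555 lay closer to the limit of 1 than their standard errors of 0.23 and 0.26.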
